A study of Mus musculus with 6 samples.

Results

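The 10 genes described here encode the receptors through which B cells read interleukin-4 (IL-4) and interleukin-21 (IL-21), the kinases and transcription factors directly below them, their feedback inhibitors, and 1 classical IL-4 target. They were Il4ra, Il21r, Il2rg, Jak1, Jak3, Stat3, Stat6, Socs1, Cish and Fcer2a, taken by gene symbol from a table of exon counts for 39017 genes. All 10 passed the filter on low counts, which kept 18268 genes. The choice used function and not any measured value of these libraries, although earlier results of the data were known when the genes were picked.

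RNA sequencing was done on induced germinal center B cells (iGBs), which are mouse B cells expanded in culture on 40LB feeders, a fibroblast line that supplies CD40 ligand and BAFF. Control iGBs came from 3 Cγ1-cre mice and Prmt1-null iGBs from 3 Prmt1 F/F Cγ1-cre mice, so the Cre recombinase, which is driven by the Cγ1 locus in switching B cells, was present in both groups. Every library was 1 mouse, harvested at day 3.5, and the age of the mice was not given in the sources used here. The labels give 5 ng/ml IL-4 in both groups, and the study's methods a lower dose. IL-21 was not among the additions described for this culture. Each group held 2 female mice and 1 male mouse (Control 1 and Prmt1-null 3).

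IL-4 binds IL-4Rα, and IL-21 binds IL-21R, and each of these chains pairs with the common γ chain encoded by Il2rg. The paired chains bring JAK1 and JAK3 together, and these kinases phosphorylate STAT6 (mainly below IL-4) or STAT3 (mainly below IL-21), which then enter the nucleus. In B cells, IL-4 is known for directing class switching to IgG1 and IgE and for inducing CD23, whereas IL-21 is known for supporting germinal center and plasma cell responses. SOCS1 and CIS are induced by such signals and restrain them.

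Libraries held 45343250 to 62774232 counts, and no pair of libraries was a duplicate. Prmt1, the targeted gene, had normalized counts of 3941, 3901 and 4809 in Control and 1734, 1469 and 1469 in Prmt1-null iGBs, and fell by 1.44 ± 0.10 (SE) on the log2 scale (adjusted p = 1.11e-05, edgeR quasi-likelihood test with Benjamini-Hochberg adjustment over all genes tested). Control 1, the shallowest library, was the lowest of the 6 libraries for 7 of the 10 genes after normalization. The summed level of 8 B cell markers was 6230 to 6663 CPM (counts scaled to library size) in Control and 6608 to 6948 CPM in Prmt1-null iGBs, and that of 6 germinal center B cell markers was 576.0 to 614.0 and 602.6 to 665.9 CPM. The 12 fibroblast markers summed to 29.7 to 32.6 CPM in Control and 32.7 to 38.3 CPM in Prmt1-null iGBs. These ranges did not overlap (exact permutation p = 0.1, two-sided, the smallest that 3 against 3 libraries allow, and 0.2 without TMM scaling). Of the 10 fibroblast markers tested 9 had a positive log2 fold change, and Postn had 0 counts in every library. Of the 10, 0 were called by edgeR (1.18% of all genes tested) and 2 were higher at an unadjusted p under 0.05 (6.5%). The 6 plasma cell markers summed to 514.0 to 566.9 CPM in Control and 577.3 to 642.8 CPM in Prmt1-null iGBs, again without overlap (exact permutation p = 0.1, and 0.2 without TMM scaling). Of the 5 plasma cell markers tested, 4 had a positive log2 fold change, with a median of 0.28. Of the 5, 0 were called by edgeR and 1 was higher at an unadjusted p under 0.05, beside the same shares of all genes. The one with the most counts was Xbp1 at 18660 in Control and 22846 in Prmt1-null iGBs (log2 difference 0.29, adjusted p = 0.0571 by edgeR, 0.00104 by DESeq2 and 0.0310 by limma-voom), and the negative one was Igj at 8933 and 8390 (-0.09). The 8 myeloid markers summed to 8.91 to 21.6 CPM in Control and 16.5 to 18.5 CPM in Prmt1-null iGBs, and the 6 T cell markers to 2.11 to 3.40 and 2.20 to 4.11 CPM, both with overlap. Of the 6 myeloid markers tested, 3 had a positive and 3 a negative log2 fold change (median -0.06), from -1.58 for S100a8, which was not called, to 0.73 for Emr1 (F4/80). S100a8 had 0, 359.5 and 35.0 normalized counts in Control and 28.2, 55.0 and 50.7 in Prmt1-null iGBs. Only Control 2 lay above all Prmt1-null libraries for S100a8. Emr1 was called, with mean normalized counts of 351 and 582 (SE of the log2 difference 0.15, adjusted p = 0.0319, edgeR). The part of feeder, plasma cell or myeloid RNA in the differences below was not tested, and fewer cells of a type and less RNA per cell cannot be told apart in these bulk libraries.

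DNA at an annotated start of 4 of the genes is printed because their counts are the ones the results below turn on. Sequences are from the RefSeq annotation of GRCm38.p6, and read 5′ to 3′ on the strand of the gene. Il4ra and Il21r are neighbours on chromosome 7, on the same strand, with 23954 bases between the end of Il4ra and the start of Il21r. The Il4ra stretch is chr7:125552021-125552119 (+), up to the base before the gene's first annotated exon, and the Il21r stretch is chr7:125603179-125603428 (+). The Fcer2a stretch is chr8:3690862-3691111 (-), before the second annotated start of the gene and within an intron of its longest transcript, and the Cish stretch is chr9:107296654-107296683 (+), across an annotated start that lies inside the gene's longest annotated extent. Capitals mark matches to TTCNNNGAA or TTCNNNNGAA, the spaced palindromes that STAT dimers are known to bind. Each motif is its own reverse complement, so 1 search covers both strands.
Il4ra: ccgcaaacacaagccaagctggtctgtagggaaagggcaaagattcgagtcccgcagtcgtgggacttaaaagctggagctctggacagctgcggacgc
Il21r: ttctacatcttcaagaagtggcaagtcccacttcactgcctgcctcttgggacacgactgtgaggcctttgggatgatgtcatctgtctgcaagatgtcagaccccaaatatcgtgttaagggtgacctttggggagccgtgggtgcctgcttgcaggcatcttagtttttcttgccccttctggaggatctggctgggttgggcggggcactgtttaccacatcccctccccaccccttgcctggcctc
Fcer2a: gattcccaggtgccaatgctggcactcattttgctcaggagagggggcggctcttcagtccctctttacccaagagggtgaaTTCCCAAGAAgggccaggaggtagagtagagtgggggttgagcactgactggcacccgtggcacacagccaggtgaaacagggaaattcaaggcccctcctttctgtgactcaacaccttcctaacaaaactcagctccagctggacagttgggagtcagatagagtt
Cish: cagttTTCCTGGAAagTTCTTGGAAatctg
The motifs were chosen after the counts had been seen, and the windows searched ran from 250 bases before to 50 bases after each annotated start. TTCNNNGAA was present in 1 of the 12 windows of the 10 genes, at Cish, where it occurred 2 times, against 8.3% of all 32851 windows holding it at least once and 0.457% holding it 2 or more times. TTCNNNNGAA was present in 1 of the 12 windows, at Fcer2a, against 6.95% of all windows. The printed stretches of Il4ra and Il21r hold neither. A match describes letters in a window and no binding was measured here.

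None of the 10 genes was called between Prmt1-null and Control iGBs (0 of 10, edgeR quasi-likelihood test, adjusted p under 0.05 and mean normalized count over 100). The same rule called 216 of 18268 genes, or 1.18%. At an unadjusted p under 0.05, 3 of the 10 were higher in Prmt1-null iGBs (Il21r, Il4ra and Fcer2a) and 0 were lower, against 6.5% of all genes tested that were higher. The same 3 genes had Prmt1-null values all above the Control values, against 9.95% of all genes tested. That share was 16.2% among genes with a mean normalized count over 10000, a level that all 3 exceeded. The DESeq2 Wald test called 2 of the 10, Il4ra and Il21r, and 4.08% of all genes tested. Over the 10 genes, 6 log2 fold changes were positive and 4 negative, with a median of 0.053, beside a median of -0.001 over all genes tested. The plot of each gene by library sets the group means beside the spread among mice.

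**Figure D1:**
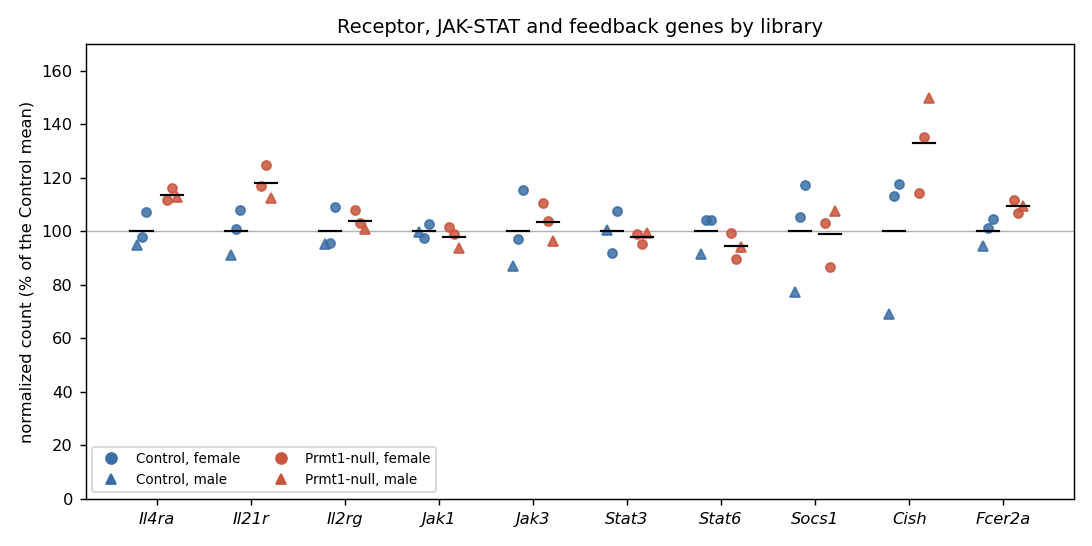
Normalized count of each of the 10 genes in each library, as a percent of the gene's Control mean (vertical axis, from 0). Circles are female and triangles male mice, and black bars are group means (n = 3 per group). The Prmt1-null points lie above every Control point for Il4ra, Il21r and Fcer2a, and the Cish and Socs1 points are the most spread in Control.

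The specific receptor chains Il4ra and Il21r had the smallest p-values of the 10 genes. Il4ra encodes IL-4Rα, which binds IL-4 and also pairs with IL-13Rα1 to read IL-13. Its normalized counts were 19700, 20323 and 22252 in Control and 23222, 24146 and 23408 in Prmt1-null iGBs. The lowest Prmt1-null library stood above the highest Control library. The group means were 20758 ± 1330 and 23592 ± 489 (SD, n = 3), a log2 difference of 0.19 ± 0.06 (SE), or 13.6% with a 95% interval from 3.29% to 25.0%. It did not pass adjustment over all genes (adjusted p = 0.204, edgeR).

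Il21r encodes the specific chain of the IL-21 receptor and had the lower p of this pair. Libraries gave normalized counts of 27466, 30430 and 32614 in Control and 35319, 37636 and 33969 in Prmt1-null iGBs. Again all Prmt1-null values lay above all Control values. The means were 30170 ± 2584 and 35641 ± 1855 (SD, n = 3), which is 18.1% more in Prmt1-null iGBs (95% interval 6.00% to 31.7%) and a log2 difference of 0.24 ± 0.07 (SE). The unadjusted p was 0.00536 and the adjusted p 0.139 (edgeR).

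Il2rg encodes the γ chain that both receptors share, and that the receptors of IL-2, IL-7, IL-9 and IL-15 share as well. Normalized counts of Il2rg were 32469, 32579 and 37089 in Control and 36778, 35094 and 34339 in Prmt1-null iGBs. The groups overlapped, since Control 3 was the highest of all libraries. The log2 difference was 0.06 ± 0.07 (SE), with a 95% interval from -0.09 to 0.20 (adjusted p = 0.784, edgeR). With single libraries left out it ran from 0.03 (without Control 1, Control 2 or Prmt1-null 1) to 0.12 (without Control 3). An exon of Il2rg shares 728 bases with Gm20489 on the same strand, so reads there could have been assigned to either gene or dropped.

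Ratios of raw counts within a library do not depend on the scaling between libraries, so the specific chains were set against the shared chain. The Il21r to Il2rg ratio was 0.846, 0.934 and 0.879 in Control and 0.960, 1.07 and 0.989 in Prmt1-null iGBs. The Il4ra to Il2rg ratio was 0.607, 0.624 and 0.600 in Control and 0.631, 0.688 and 0.682 in Prmt1-null iGBs. Both ratios were higher in every Prmt1-null library than in any Control library (exact permutation p = 0.1 for each, two-sided, the smallest this design allows). In contrast, the Il21r to Il4ra ratio was 1.45 ± 0.05 in Control and 1.51 ± 0.05 in Prmt1-null iGBs (SD, n = 3), with overlapping libraries (exact permutation p = 0.3). These ratios compare raw counts and not the numbers of receptor chains on the cell.

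Il4ra (chr7:125552120-125579474) and Il21r (chr7:125603429-125633570) lie on the chromosome that also carries Prmt1, at 80.566 and 80.617 Mb from it. Exons of Il4ra share 571 bases with the opposite-strand gene Gm44876. The strand setting of the counting was not given in the sources used here.

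**Figure D2:**
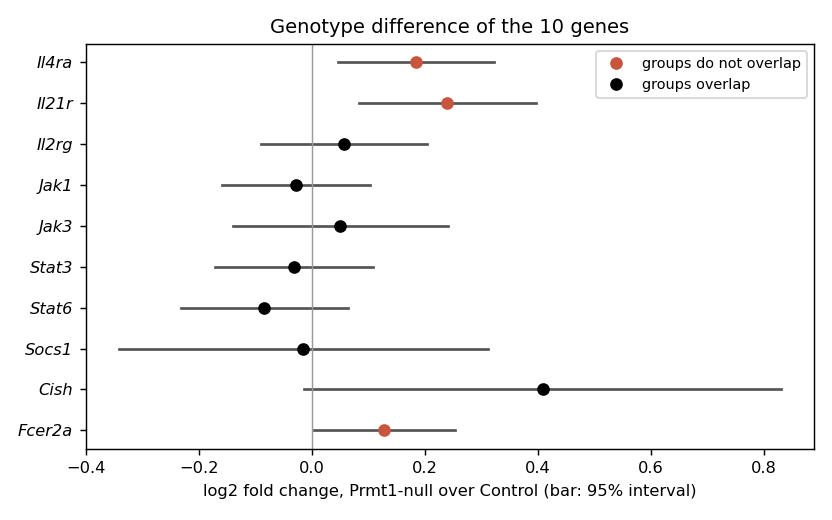
Log2 fold change of the 10 genes, Prmt1-null over Control (horizontal axis), from the edgeR fit across all genes, with 95% intervals as bars. The intervals of Il4ra, Il21r and Fcer2a lie above 0 before adjustment, that of Cish reaches from -0.01 to 0.83, and those of the kinases, STATs and Il2rg include 0.

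The kinases and STATs differed little between groups, and their intervals set limits on how far. Jak1 encodes the kinase that IL-4Rα and IL-21R carry. Its normalized counts were 26204, 25616 and 26967 in Control and 26665, 25973 and 24592 in Prmt1-null iGBs. The libraries of both groups were interleaved, and the Control libraries varied by 2.58% (coefficient of variation), the least of the 10 genes. The log2 difference was -0.03 ± 0.06 (SE), with a 95% interval from -10.5% to 7.34% (adjusted p = 0.880, edgeR).

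Jak3 encodes the kinase bound to the common γ chain. The normalized counts were 5527, 6167 and 7324 in Control and 7002, 6575 and 6118 in Prmt1-null iGBs. Control held both the lowest and the highest library. The log2 difference was 0.05 ± 0.09 (SE, 95% interval -0.14 to 0.24, adjusted p = 0.856, edgeR), and it was -0.04 without Control 1 and 0.17 without Control 3. Jak3 exons share 404 bases with Insl3 on the same strand.

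Stat6 encodes the STAT that IL-4 activates. In Control it had normalized counts of 4316, 4923 and 4909, and 4684, 4228 and 4443 in Prmt1-null iGBs. The groups overlapped only through Control 1, as the other Control libraries lay above all Prmt1-null libraries. The log2 difference was -0.08 ± 0.07 (SE, 95% interval -0.23 to 0.06, adjusted p = 0.651, edgeR). It was -0.14 without Control 1, -0.05 without Control 2 or Control 3, and -0.04 without Prmt1-null 2.

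Stat3 encodes the main STAT of IL-21. Its normalized counts were 8282, 7600 and 8881 in Control and 8162, 7869 and 8197 in Prmt1-null iGBs. All Prmt1-null values fell inside the Control range. The log2 difference was -0.03 ± 0.06 (SE, 95% interval -0.17 to 0.11, adjusted p = 0.877, edgeR). Its exons share 72 bases with Stat5a on the opposite strand, and those of Stat6 share 40 bases with Nab2.

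Of the feedback inhibitors, Socs1 encodes a protein that binds JAKs and blocks their activity. It had 529.0, 721.7 and 804.9 normalized counts in Control and 706.5, 592.8 and 737.6 in Prmt1-null iGBs. The groups overlapped, with Control at both ends. The log2 difference was -0.02 ± 0.15 (SE, 95% interval -0.34 to 0.31, adjusted p = 0.979, edgeR), an interval that holds differences in both directions. The sign depended on single libraries, with a range from -0.17 to 0.12 when each was left out in turn, the lower end being the fit without Control 1.

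Cish encodes CIS, an inhibitor best known as a STAT5 target. It had 192.0, 313.3 and 326.4 normalized counts in Control and 317.0, 374.8 and 415.3 in Prmt1-null iGBs. Its log2 difference of 0.41 ± 0.20 (SE) was the farthest from 0 of the 10 genes, with an interval from -0.01 to 0.83 and an adjusted p of 0.392 (edgeR). Prmt1-null 1 lay below Control 3, so the groups overlapped, and without Control 1 the difference was 0.21. Control libraries varied by 26.7% for Cish, whereas its counting error was 4.76% to 7.93% per library. Exons of Cish share 261 bases with Gm17040 and 479 with Gm17041, both on the opposite strand.

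Fcer2a encodes CD23, the low-affinity IgE receptor that IL-4 induces on B cells. Its normalized counts were 118398, 126741 and 131059 in Control and 139906, 133997 and 137278 in Prmt1-null iGBs. The groups did not overlap, and counting error was at most 0.32% per library. The means were 125399 ± 6436 and 137060 ± 2960 (SD, n = 3), a log2 difference of 0.13 ± 0.06 (SE), or 9.30%, with an unadjusted p of 0.0443 and an adjusted p of 0.350 (edgeR). Without Control 1 the log2 difference was 0.09. The Fcer2a to Il4ra ratio of raw counts overlapped between groups, at 6.05 ± 0.18 in Control and 5.81 ± 0.24 in Prmt1-null iGBs (SD, n = 3, exact permutation p = 0.3). Prmt1-null values lay above all Control values more often among highly counted genes than over all genes tested (9.95%). Of the 1043 genes with a mean normalized count over 10000, 16.2% were higher in Prmt1-null iGBs without overlap and 24 were called in either direction.

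Whether Il21r and Il4ra passed the threshold depended on the tool and the filter on low counts, while the difference itself moved little. Across the tools, filters and covariates tried, the log2 difference of Il21r stayed between 0.24 and 0.25 and that of Il4ra between 0.18 and 0.19. DESeq2 gave adjusted p-values of 0.0180 for Il21r and 0.0493 for Il4ra, and edgeR without the filter on low counts gave 0.0186 for Il21r. With edgeR and each library left out in turn, the adjusted p of Il21r ran from 0.05003 to 0.458 and its log2 difference from 0.18 to 0.30, while for Il4ra they ran from 0.0772 to 0.505 and from 0.15 to 0.24. Neither was called in any of these fits. Without Control 1 the log2 differences were 0.18 for Il21r and 0.15 for Il4ra. Fcer2a and Cish were called under no setting, at adjusted p-values down to 0.163 and 0.225.

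**Figure D3:**
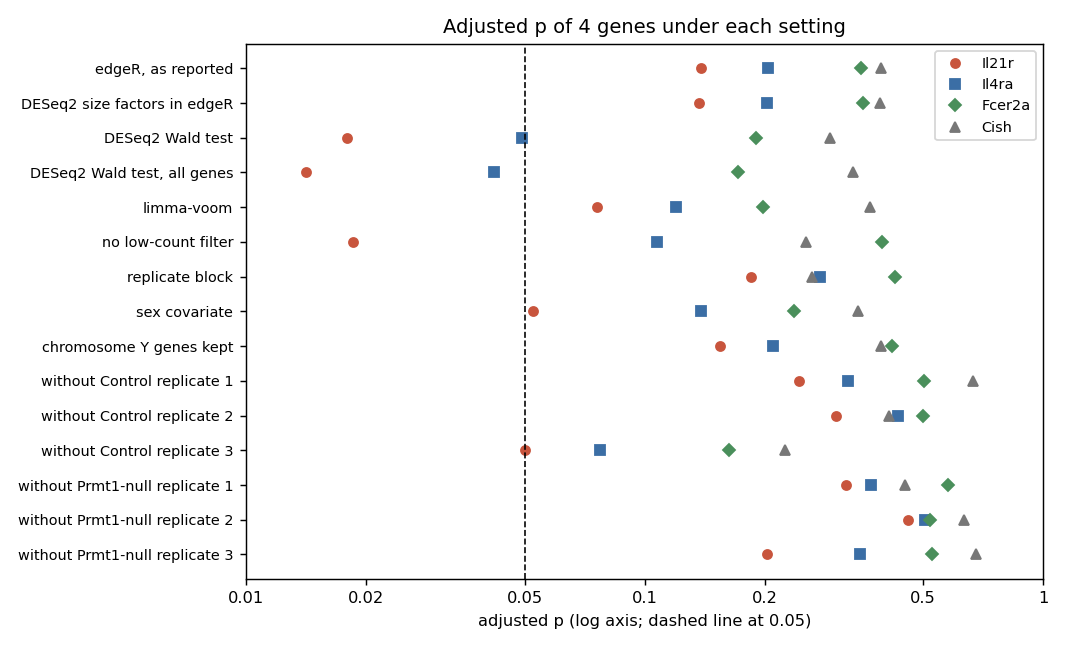
Adjusted p (horizontal log axis) of Il21r, Il4ra, Fcer2a and Cish under each setting (vertical axis), with a dashed line at 0.05. Il21r lies left of the line in both DESeq2 fits and without the low-count filter and Il4ra in both DESeq2 fits, while Fcer2a and Cish lie right of it in every fit.

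Sex was split evenly between the groups. For Il21r, Il4ra and Fcer2a all Prmt1-null values lay above all Control values, so their direction within each sex was fixed in advance. Among females (2 against 2) the log2 differences were 0.21 for Il21r, 0.15 for Il4ra and 0.09 for Fcer2a, without overlap for any of the 3. The male pair (1 against 1) gave 0.31, 0.25 and 0.21. For Cish the values were 0.11 in females and 1.11 in the male pair. The interaction of genotype and sex for Cish was 1.00 on the log2 scale, with an adjusted p of 0.529 and an unadjusted p of 0.00868 (edgeR). The male Control mouse is Control 1, so sex and that library cannot be told apart there.

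Levels can be compared between genes only per exon length, here as CPM per kb of exon. Fcer2a was the highest at 735.5 ± 37.8 in Control and 803.9 ± 17.4 in Prmt1-null iGBs (SD, n = 3), above 99.4% of the genes tested. Then came the receptor chains Il2rg at 246.7 to 281.8 in Control and Il21r at 164.6 ± 14.1. Jak1 at 65.9 ± 1.70 and Il4ra at 62.7 ± 4.02 overlapped in Control, and their order was the other way in Prmt1-null iGBs, with 64.6 ± 2.65 and 71.3 ± 1.48. The next group was Jak3 at 21.5 ± 3.09, Stat6 at 19.4 ± 1.43 and Stat3 at 15.7 ± 1.22 in Control, of which Jak3 and Stat6 overlapped. The inhibitors were lowest, Socs1 at 4.27 ± 0.88 and Cish at 0.783 ± 0.209 in Control, the latter above 25.6% of the genes tested. Apart from these overlapping neighbours, the ranges of adjacent genes in the order did not overlap in Control. The exons of Cish cover 6419 of the 6759 bases of the gene, because 1 annotated transcript has a very long exon, and this lowers its level per kb. By group mean, Control and Prmt1-null libraries shared the same order except for Jak1 and Il4ra.

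**Figure D4:**
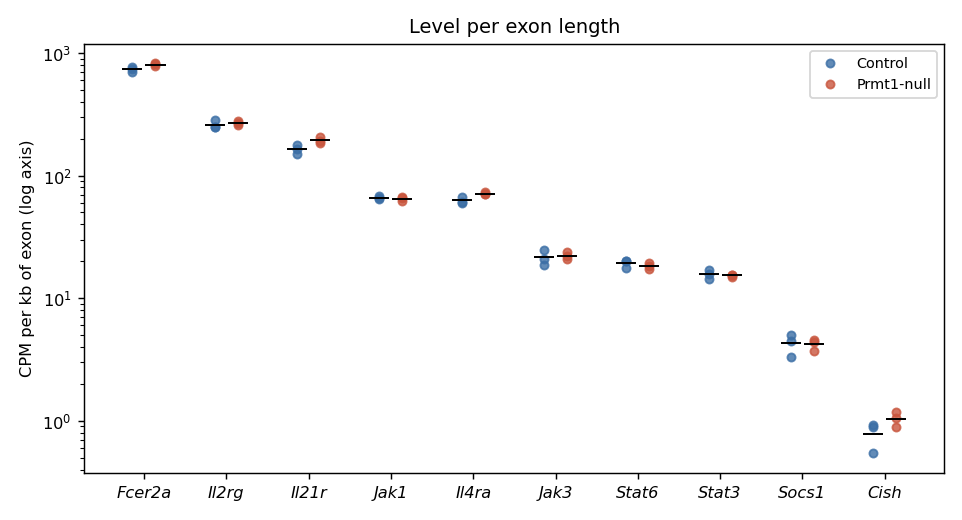
Level of the 10 genes in CPM per kb of exon (vertical log axis), ordered by the Control mean, with 1 point per library and bars at the group means (n = 3 per group). The levels run from Fcer2a at 735.5 in Control down to Cish at 0.783, and the points of both groups lie close together for each gene.

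Other genes of the pathway were counted from lists of receptors, ligands, kinases, STATs, inhibitors and regulators. Of the 65 listed genes outside the 10, 59 were tested and 0 were called by edgeR, against 1.18% of all genes tested. At an unadjusted p under 0.05, Prmt1-null iGBs had 7 of them higher and 3 lower, against 6.5% and 7.0% of all genes tested. DESeq2 called 1 (Il6ra), against 4.08% of all genes tested. The median log2 fold change of the 59 was 0.04. Among the kinases, Jak2, which serves interferon-γ and hormone-type receptors, had the smallest p, with 4942, 4888 and 4394 normalized counts in Control and 4265, 4340 and 3770 in Prmt1-null iGBs. All Prmt1-null values lay below all Control values, with a log2 difference of -0.20 ± 0.07 (SE) and an adjusted p of 0.214 (edgeR). Tyk2, the remaining kinase, differed by 0.06 (log2), with a range from 0.04 (without Control 2) to 0.10 (without Prmt1-null 3) when each library was left out. Of the 7 STATs, 0 were called or under an unadjusted p of 0.05 by edgeR, and 0 were called by DESeq2. Stat4, the STAT of IL-12, had a log2 difference of -0.12 (adjusted p = 0.487, edgeR), which ran from -0.14 to -0.07 with single libraries left out, the latter without Control 2.

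The SOCS and CISH family had no common direction, with 3 positive and 5 negative log2 fold changes among 8 genes. Of the 8, 0 were called by edgeR or DESeq2, which called 1.18% and 4.08% of all genes tested. Socs2, a further STAT5 target, had 1005, 1063 and 934 normalized counts in Control and 1175, 1431 and 1158 in Prmt1-null iGBs. These did not overlap, and the log2 difference was 0.33 ± 0.11 (SE, unadjusted p = 0.0113, adjusted p = 0.197, edgeR). Socs3, an inhibitor known as a STAT3 target, had a difference of -0.37 ± 0.15 (SE, adjusted p = 0.303, edgeR) with overlapping libraries. Of the 20 regulators, Sh2b1, a JAK2-binding adaptor, had 0.28 (adjusted p = 0.208) and Ptprc, which encodes the CD45 phosphatase, had -0.17 (adjusted p = 0.224, edgeR for both).

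Of the common γ chain family, 10 of 11 genes were tested, 3 were higher at an unadjusted p under 0.05 (6.5% of all genes tested) and 0 were called by edgeR (1.18%), and those with the smallest p were Il21r and Il4ra themselves. Among 15 tested chains of other JAK-coupled receptors, 2 were higher at an unadjusted p under 0.05, beside the same 6.5%. Il6ra, the IL-6 receptor α chain, had 812.7, 905.0 and 999.9 normalized counts in Control and 1187, 1095 and 1197 in Prmt1-null iGBs. The groups did not overlap, and the log2 difference was 0.36 ± 0.11 (SE, adjusted p = 0.143 by edgeR and 0.0322 by DESeq2). Its partner Il6st, which encodes gp130, had 0.18 ± 0.08 (SE, adjusted p = 0.322, edgeR).

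Little RNA of the ligands themselves was counted. Il21 and Il9 had 0 counts in all 6 libraries, which allows up to 3 counts per library or 0.0478 to 0.0662 CPM, a limit that covers counting error only. Il4 had 10.3 to 26.2 and Il2 24.1 to 60.1 normalized counts per library, with overlapping groups. Il7 had 4.83, 0 and 4.38 normalized counts in Control and 12.1, 12.8 and 18.8 in Prmt1-null iGBs (log2 difference 2.28 ± 0.96, SE, adjusted p = 0.305, edgeR), a few reads per library, and Il15 had a log2 difference of 0.53 (adjusted p = 0.568, edgeR), or 0.27 without Control 1 and 0.87 without Control 3.

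**Figure D5:**
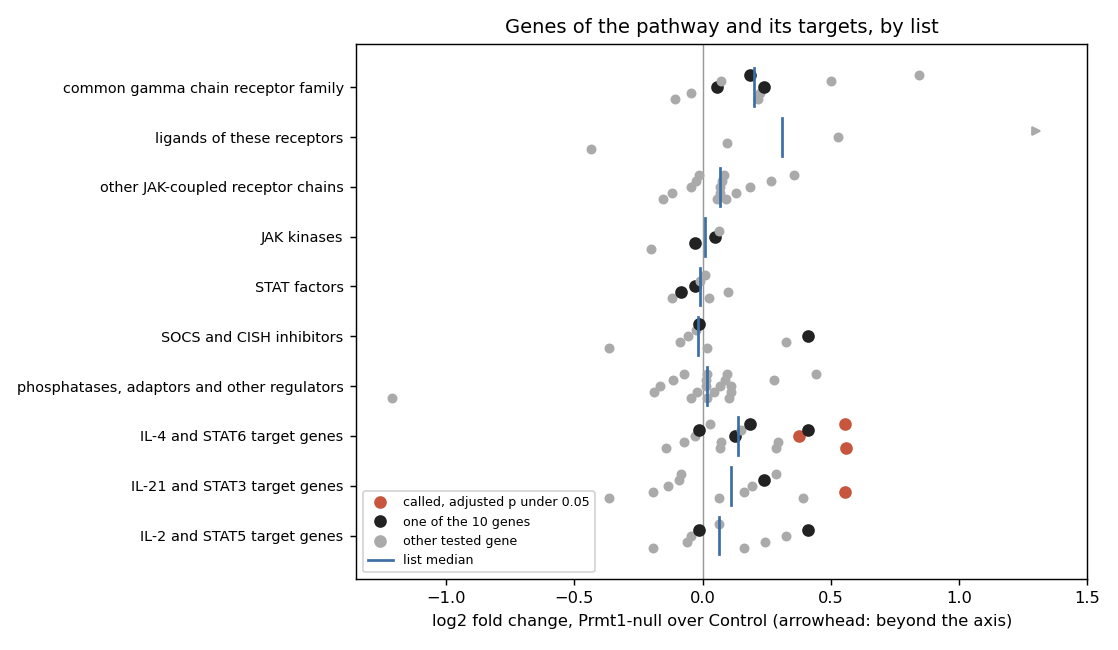
Log2 fold change, Prmt1-null over Control (horizontal axis), of every tested gene in each of the 10 pathway and target gene lists (vertical axis), with 1 point per gene and a blue line at the list's median. Red points are called by edgeR, black points are among the 10 genes, and an arrowhead stands for Il7 at 2.28, beyond the axis. The red points are Il4i1, Ccl22 and Batf, the last in 2 lists.

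Genes known to respond to IL-4 or STAT6 in B cells were counted from a list of 17, of which 16 were tested, 4 of them (Fcer2a, Il4ra, Socs1 and Cish) among the 10. Of these, 3 rose in Prmt1-null iGBs and 0 fell (edgeR), 8 were higher without overlap, and the median log2 fold change was 0.14. Over all genes tested, 1.18% were called in either direction and 9.95% were higher without overlap, the latter share being 16.2% of genes with a mean normalized count over 10000. DESeq2 called 6 of the 16, all higher (Il4i1, Ccl22, Batf, Ighg1, Xbp1 and Il4ra), beside 4.08% of all genes tested. Il4i1, a secreted enzyme that oxidizes phenylalanine, had 10795, 11363 and 12349 normalized counts in Control and 16579, 17387 and 16796 in Prmt1-null iGBs. It rose by 0.56 ± 0.06 (log2, SE, adjusted p = 0.00207, edgeR). It lies 135.2 kb from Prmt1, and 3423 of its 4080 exon bases are shared with Tbc1d17 on the opposite strand, and with the strand setting unknown its reads cannot be fully separated from those of that gene. Tbc1d17 itself had a log2 difference of 0.09 ± 0.10 (SE, adjusted p = 0.757, edgeR). Nup62, with 97 shared bases on the same strand, had 0.10 (adjusted p = 0.610), whereas Atf5, with 82 shared bases on the opposite strand, was called at 0.63 ± 0.13 (SE, adjusted p = 0.0392, edgeR).

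Ccl22, a chemokine that attracts CCR4-bearing T cells, had 33289, 35518 and 32374 normalized counts in Control and 43629, 42921 and 44653 in Prmt1-null iGBs. It rose by 0.38 ± 0.06 (log2, SE, adjusted p = 0.0104, edgeR). Batf, an AP-1 factor needed for class switching, had 1240, 1402 and 1553 normalized counts in Control and 1931, 2138 and 2102 in Prmt1-null iGBs, and rose by 0.56 ± 0.10 (log2, SE, adjusted p = 0.0149, edgeR). Both calls were lost in some fits with a library left out, that of Ccl22 without Prmt1-null 1 (adjusted p = 0.0614) or 2 (0.0675) and that of Batf without Control 2 (0.0718) or Prmt1-null 1 (0.0614), 2 (0.102) or 3 (0.0723, all edgeR). The log2 differences in those fits were 0.38 and 0.39 for Ccl22 and 0.53 to 0.60 for Batf. The switched constant genes Ighg1 and Ighe had log2 differences of 0.29 (adjusted p = 0.0626 by edgeR and 0.00102 by DESeq2) and 0.15 (adjusted p = 0.436, edgeR, or 0.06 on the log2 scale without Control 3), and the class II gene H2-Aa had -0.03. Among the listed genes the differences ran from -0.14 to 0.56.

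Of 12 tested genes known to respond to IL-21 or STAT3, 1 rose (Batf, also in the IL-4 list) and 0 fell by edgeR, DESeq2 called 2 (Batf and Il21r), and Il21r had the next smallest p. Over all genes tested these tools called 1.18% and 4.08%, and at an unadjusted p under 0.05 edgeR had 6.5% higher and 7.0% lower. At an unadjusted p under 0.05, 3 were higher and 2 lower, and the median was 0.11. Of 9 tested STAT5 target genes, 0 were called by edgeR, and 2 were higher and 1 lower at an unadjusted p under 0.05. The lower one was Bcl6, the germinal center repressor, with a log2 difference of -0.19 ± 0.07 (SE, adjusted p = 0.201, edgeR), or -0.12 without Control 3.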

How the data were processed

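RNA from iGBs was sequenced after ribosomal RNA depletion with a stranded kit. The deposited table holds counts without normalization, made by the authors with Trimmomatic 0.32, STAR 2.3.0e (mm10) and featureCounts 1.4.4 on exons. Of 39017 genes, 37693 were matched to GENCODE M21 by gene ID, 803 by symbol and 521 not. Every column was assigned to a sample by title, with 0 other per-sample columns. In R 4.3.3, edgeR 4.0.16 was run with filterByExpr (minimum count 10), TMM factors and the quasi-likelihood test, leaving out 398 chromosome Y genes as in the study's methods. The threshold was an adjusted p under 0.05 with a mean normalized count over 100, and the biological coefficient of variation was 0.154. Single values were compared by two-sided exact permutation tests over 20 arrangements. Alternatives used DESeq2 1.42.0, limma 3.58.1 (voom) and other filters, factors and covariates. The fit was tested on simulated data. The 10 genes and all lists were chosen with earlier results of these data known. Genes named were the 10, Prmt1, neighbours or overlapping genes of the 10, and from each pathway or target list those called or, where fewer than 2 were called, the 2 with the smallest p. Il4, Il2, Il9, Il21, Ighg1, Ighe, H2-Aa, Xbp1, Igj, Emr1, S100a8, Tbc1d17, Nup62, Atf5 and Postn fell outside this rule and were named after their values were seen. A gene that this rule reached is not reported here.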

Additional observations from a re-analysis of the deposited data

Results flagged for a closer look

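Stat6, Socs1 and Tyk2 are given here because the female libraries of Prmt1-null and Control iGBs did not overlap and the male pair differed in the opposite direction. For Stat6, the log2 difference was -0.14 in females (2 against 2, without overlap) and 0.042 in the male pair (1 against 1). The interaction of genotype and sex for Stat6 was 0.18, with an adjusted p of 0.762 over all genes tested (edgeR). For Socs1, it was -0.23 in females, again without overlap, and 0.48 in the male pair. Its interaction was 0.71, with an adjusted p of 0.573 and an unadjusted p of 0.0156 (edgeR). For Tyk2, it was 0.10 in females and -0.01 in the male pair (-0.007 with 3 decimals). The normalized counts of Tyk2 in that pair were 2752 (Control 1) and 2740 (Prmt1-null 3). They lay closer together than the counting error of 1.77% to 2.09% per library, so the direction in males was not resolved. The interaction for Tyk2 was -0.10, with an adjusted p of 0.888 (edgeR). None of the 3 interactions passed adjustment over the 18268 genes tested, of which 28 did. Control 1 is the single male Control library and the lowest for Socs1, and its part in the difference cannot be told apart from sex.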

How the results depend on the processing

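Genes called changed from 216 (106 higher) to 746 (332 higher) with DESeq2, 706 (318 higher) with DESeq2 on all genes, an alternative chosen after seeing the data, and 675 (319 higher) without the low-count filter, and to between 31 and 340 when each library was left out. Under these settings calls among the 10 genes went from 0 to 2, 2 and 1, and calls among the 59 other tested pathway genes from 0 to 1, 2 (Ptprc and Il6ra) and 1 (Sh2b1). The cause was not tested. Socs1 was at 0.0 with sex as a covariate, from -0.015. Signs turned with a library left out for Jak1 (-0.051 to 0.002), Jak3 (-0.036 to 0.167), Stat3 (-0.088 to 0.025) and Socs1 (-0.165 to 0.115), none of them called. Of 140 comparisons of the 10 log2 differences with an alternative, 128 kept their direction and their side of the threshold. With the replicate block, 151 genes were called (81 higher) and 0 of the 10, against 216 and 0. Same-numbered libraries came from different mice, and their deviations correlated at -0.31, 0.22 and -0.34 over 13079 genes. The male mouse is number 1 in Control and 3 in Prmt1-null iGBs, so these correlations cannot exclude a batch shared by number. The main fit did not pair the libraries. With 3 mice per group, p-values reflect the spread between these mice and their cultures. RLE factors, limma-voom, sex, kept chromosome Y genes and no minimum mean gave 213 to 283 calls.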
